A study of Lymantria dispar dispar and Lymantria dispar asiatica with 30 samples.

Results

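The genes described here are the 150 spongy moth genes whose transcript levels stood out most on day 11 after pupation, the last day sampled, out of 19654 genes measured. They were chosen from the measured values. For each gene the mean over the 6 libraries of a day was taken, and the genes with the largest day 11 mean minus the highest of the other 4 day means were kept. That difference is called the margin below. It was positive in 4808 genes (24.5%), of which the 150 are the upper end of a continuous range. The height on day 11 against the other days is what chose these genes and is given as a description, with no test.

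The libraries came from whole female pupae of *Lymantria dispar*, homogenised one by one, with 3 pupae for each of 10 groups of strain and day. The ASM pupae (Asian spongy moth, labelled RM, lab generation 34) were reared on a diet with 0.21 g of iron phosphate per litre and the ESM pupae (European spongy moth, labelled CT, lab generation 32) on one with 0.13 g, all at 25 degrees C. Each strain was a single colony, so strain, colony and diet cannot be told apart, and p-values measure the spread between pupae of these colonies. Pupae were taken on days 1, 3, 5, 8 and 11, polyadenylated RNA was sequenced, and the reads of both strains were aligned to a draft ASM genome. Poorer alignment of ESM reads would lower an ESM value, and its part in the strain differences below was not tested.

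The deposited values are on the variance-stabilised (VST) scale, which is log2-like but not log2. Counts were recovered from them, and levels are given as normalised counts, that is, recovered reads divided by the size factor of the library. For a count that doubled from 10 the scale rose by 0.98 units, from 100 by 1.65, from 1000 by 1.13 and from 10000 by 0.61, so a difference in VST units has to be read beside the counts. The libraries held 2638192 to 10788731 recovered reads, and those of day 11 held 3447510 to 10788731. Where a library had no read, up to 3 remain possible, and this limit covers counting error only. In whole pupae, fewer cells of a type and less RNA per cell cannot be told apart.

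By the end of the pupal stage a moth has become a pharate adult, an adult body complete inside the pupal case. Its cuticle has been laid down and begins to darken and harden, its flight muscles and nervous system are close to working order, and its gut and fat body are those of an adult. In the female spongy moth the eggs also form during the pupal stage, so that yolk and eggshell are made before the adult emerges and she can lay soon after. Genes that come on late in the pupa can belong to any of these processes.

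What most of these 150 genes encode is not given in the sources used here. Only 2 of the 150 (1.33%) had a description, against 621 of the 19654 genes (3.16%). The study described genes that it picked, in part on these samples, so a missing description says only that a gene was not among those. The 2 were Lda.11987, described as a sorbitol dehydrogenase, and Lda.7168, described as an uncharacterized protein. The other 148 are named by their gene identifier alone, and no sequence, position or function is attached to them here.

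As a set, the 150 genes were at a low level until day 5, somewhat higher on day 8 and highest on day 11. Single genes departed from this course, as given below. Taken as the median over the genes, the mean normalised count was 12.1 (day 1), 7.72 (day 3), 5.55 (day 5), 21.5 (day 8) and 217 (day 11). The genes took 0.0779% to 0.325% of the reads of a pupa on days 1 to 8 and 1.21% to 3.59% on day 11. Between 91 and 102 of them had a read in a pupa of day 5, and 142 to 150 did in a pupa of day 11. Their day 11 mean ran from 20.8 to 13052 normalised counts, was at least 100 in 120 genes and at least 1000 in 33. The ratio of the day 11 to the day 8 mean count had a median of 8.22, was at least 10 in 62 genes and at least 100 in 18.

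**Figure D1:**
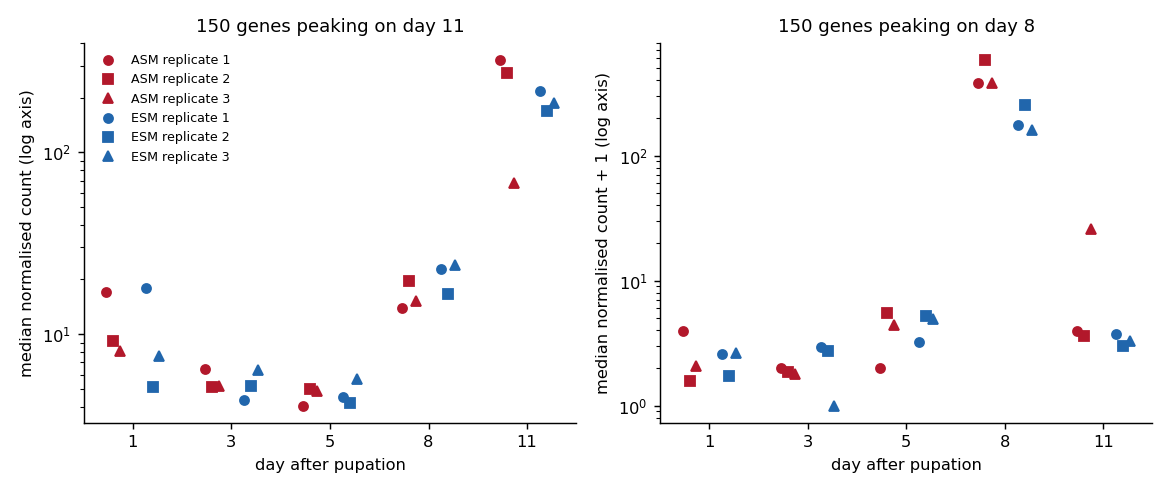
Median normalised count in each of the 30 pupae (log axis) over the 150 genes peaking on day 11 (left) and, with 1 added, over the 150 genes chosen by the same rule for day 8 (right); colour gives the strain and marker shape the replicate number. On day 11 the third ASM pupa sits at 68.1 on the left, below 5 other pupae at 169 to 323, and at a median of 24.8 (before 1 is added) on the right, above 5 other pupae at 2.00 to 2.91.

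One library stood apart from the other day 11 libraries, and it bears on everything below. In ASM day 11 replicate 3 the median of the 150 genes was 68.1 normalised counts, against 323 and 274 in the other ASM pupae and 169 to 217 in the ESM pupae. It was the lowest of the 6 day 11 pupae in 112 of the 150 genes and the highest in 9. The genes took 1.21% of its reads, against 2.41% to 3.59% in the other 5, and its 3447510 reads were the fewest of the day. At the same time, the 150 genes that the same rule chooses for day 8 were at a median of 24.8 normalised counts in this pupa and at 2.00 to 2.91 in the other day 11 pupae. Across all genes, which are not independent replicates, its correlation with the 6 day 8 libraries was 0.922 to 0.947, and that of the other day 11 libraries was 0.879 to 0.932. Its mean correlation was 0.935 with the day 8 libraries and 0.937 with the other day 11 libraries, so it was about equally like both. Each of the other day 11 libraries had a mean of 0.957 to 0.966 with the rest of that day. It was kept, since its label gives no reason to drop it, and the counts of genes called are given with and without it. The part in these values of its depth, its stage of development at sampling or its handling was not tested.

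For the 150 genes the level in that pupa was 0.314 times the median of the other 5 day 11 pupae, taken as the median of the ratios over the genes. It was under 0.1 times in 36 genes, and 8 genes had no read there. In 52 genes it lay no higher than the highest pupa of day 8. The genes did not all follow this course, since 20 were at or above the median of the other 5 pupae. Among these were Lda.8882 and Lda.11987.

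**Figure D2:**
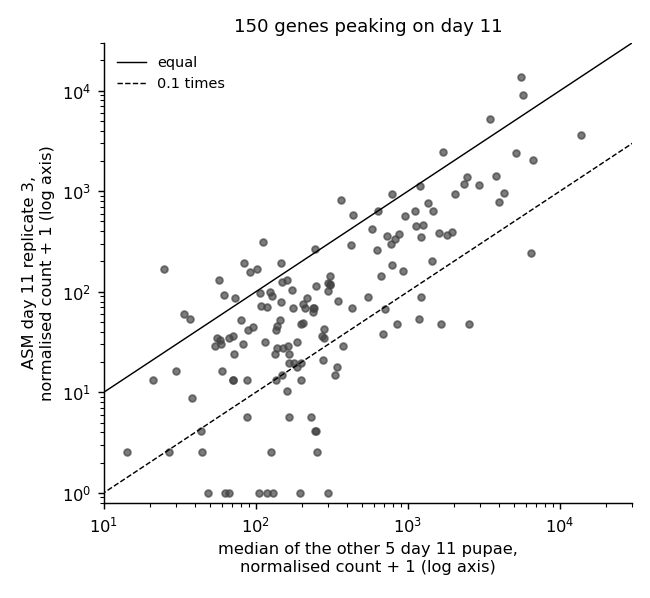
Normalised count + 1 of each of the 150 genes in ASM day 11 replicate 3 (vertical) against the median of the other 5 day 11 pupae (horizontal), both on log axes; the solid line marks equal levels and the dashed line 0.1 times that level. Most points lie below the solid line, 36 lie under 0.1 times, 8 sit at the bottom with no read, and 20 lie on or above equality.

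The gene with the largest margin, Lda.8882, went from near absence to one of the higher levels of the set. Its normalised count was at most 3.21 in the 12 pupae of days 1 and 3, 15.8 to 55.7 on day 5 and 1.41 to 12.7 on day 8. On day 11 it was 7183, 5686 and 9058 in the ASM pupae and 6980, 5454 and 4817 in the ESM pupae. The groups overlapped, and the third ASM pupa was the highest of the 6. Its margin was 10.24 VST units. On the VST scale its 6 day 11 values also had one of the 2 narrowest ranges of the 150 genes. That scale rises less per doubling at such high counts than at 100. The other narrow one was Lda.28669, at 92.7, 70.7 and 86.7 in ASM and 97.6, 57.3 and 71.9 in ESM pupae of day 11, after 2.92 to 27.1 on day 8.

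The next 3 margins belonged to Lda.30559, Lda.34159 and Lda.8587, which were all at or close to 0 until day 5. Lda.30559 was at most 2.14 through day 5 and 0.665 to 18.3 on day 8. On day 11 it was 732, 1068 and 52.6 in ASM and 1748, 1490.1 and 1178 in ESM pupae. Lda.34159 had no read on day 5, and on day 11 it was 3039, 2206 and 463 in ASM and 901, 1262 and 506 in ESM pupae. Lda.8587 never passed 6.09 before day 11, when it was 1747, 854 and 46.4 in ASM and 922, 224 and 488 in ESM pupae. In each of these 3 genes the third ASM pupa was the lowest of the 6, and the strains overlapped in Lda.34159 and Lda.8587 but not in Lda.30559, where all ASM values lay below all ESM values. That difference was -2.90 VST units (SE 0.89, adjusted p = 0.0574 from limma) and was not called.

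**Figure D3:**
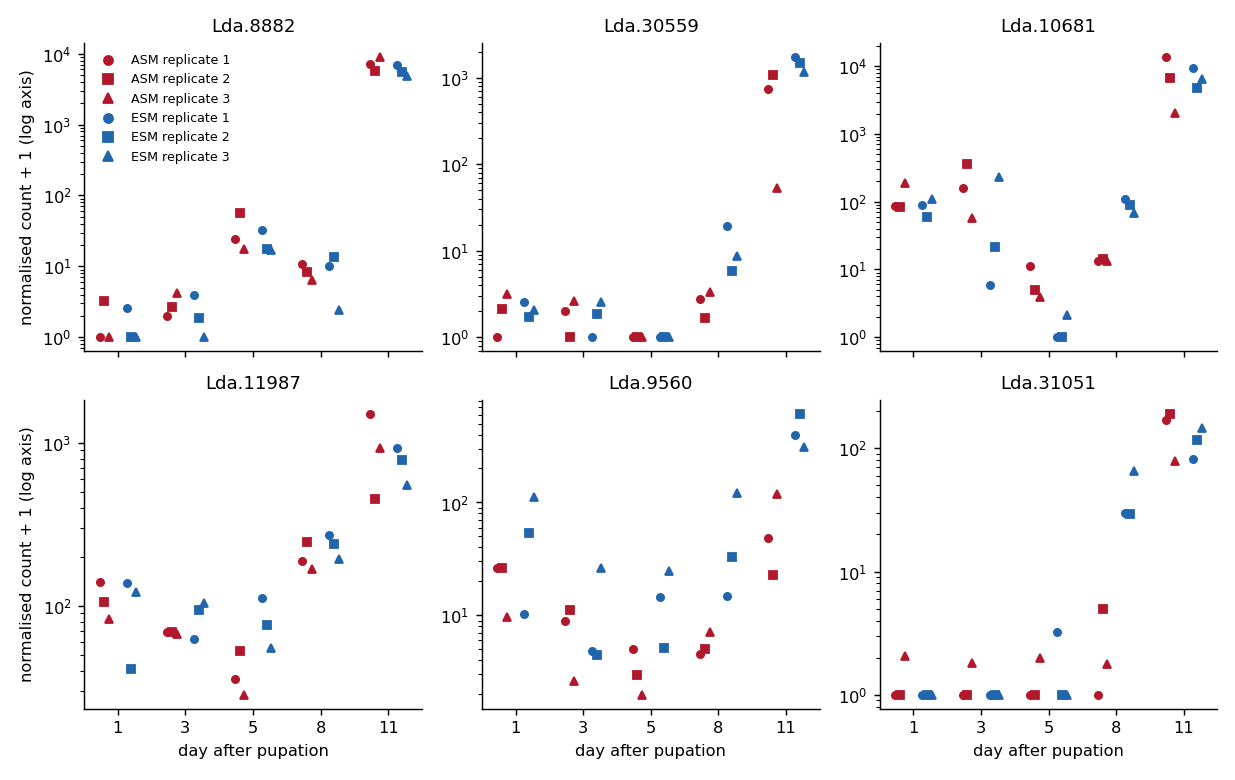
Normalised count + 1 (log axis) of 6 of the genes in every pupa by day after pupation; colour gives the strain and marker shape the replicate number. Lda.8882 was between 4817 and 9058 in all 6 pupae of day 11, the third ASM pupa was low in Lda.30559 and Lda.10681, ESM pupae were higher in Lda.9560, and on day 8 Lda.31051 was at 28.3 to 64.0 in ESM and at most 3.99 in ASM pupae.

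The highest levels on day 11 were those of Lda.30875 and Lda.10681. Lda.30875 reached 21357, 15017 and 3659 in ASM and 13709, 11982 and 12588 in ESM pupae. It was also one of the 2 genes with the highest day 1 mean on the VST scale, at 597 to 1673 normalised counts on day 1, then 102 to 247 on day 5 and 53.4 to 569 on day 8, so that it was lower on days 5 and 8 than on days 1 and 11. Lda.10681 was at 58.2 to 188 on day 1, at most 10.1 on day 5, and at 13776, 6658 and 2039.8 in ASM and 9469, 4777 and 6371 in ESM pupae of day 11. The other gene of high day 1 mean on that scale, Lda.7200, was at 299.9 to 1389 on day 1 and 88.9 to 586 on day 8. On day 11 it was 8656, 5998 and 13682 in ASM and 5525, 4197 and 3799 in ESM pupae. Here the third ASM pupa was the highest, and the strains did not overlap. The difference on day 11 was 0.71 VST units (SE 0.90, adjusted p = 0.745 from limma) and was not called. Over all genes tested, 12.2% had all ASM pupae above all ESM pupae on that day.

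The 2 widest day 11 ranges on the VST scale were those of Lda.41392 and Lda.26232, and the third ASM pupa made both. In normalised counts Lda.30875 ranged wider, from 3659 to 21357. Lda.41392 was 983, 195 and 0 in ASM and 179.6, 115 and 207 in ESM pupae, with a single read in the 24 earlier libraries together. Lda.26232 was 594, 1061 and 1.55 in ASM and 59.0, 250.5 and 195 in ESM pupae, with 5 reads in the 24 earlier libraries. Both were thus well above the limit of detection in 5 of the 6 pupae of day 11 and at or near it in the last.

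Of the 2 described genes, Lda.11987 is a putative sorbitol dehydrogenase. This enzyme interconverts sorbitol and fructose, and in eggs of the silkmoth *Bombyx mori* it is known for drawing on stored sorbitol as diapause ends. Its level was 40.0 to 139 normalised counts on day 1, 27.4 to 110.2 on day 5 and 167 to 271 on day 8. On day 11 it was 1500.05, 451 and 929 in ASM and 928, 781 and 547 in ESM pupae, with the strains overlapping. Its difference between the strains on day 11 was 0.25 VST units (SE 0.56, adjusted p = 0.876 from limma) and was not called. The second, Lda.7168, had at most 6.24 normalised counts through day 5 and 6.13 to 51.3 on day 8. It was at 306, 329.8 and 116 in ASM and 335, 60.6 and 302 in ESM pupae of day 11, and it too was not called between the strains (difference 0.44, SE 0.73, adjusted p = 0.816 from limma).

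At the edge of the set, the last gene inside was Lda.3421 with a margin of 2.3436 and the first outside was Lda.24125 with 2.3415. Lda.3421 was 147, 219 and 13.9 in ASM and 94, 30.6 and 154 in ESM pupae of day 11, and never passed 47.3 before. Lda.24125 was 65.5, 77.8 and 43.3 in ASM and 29.5, 14.7 and 25.9 in ESM pupae of day 11, after up to 21.3 on day 8. The 6 described genes that came next in order of margin lay outside, and they were picked out here after their values had been seen. They were an uncharacterized protein (Lda.7260, place 156) and 2 putative forms of mitochondrial uncoupling protein 4 (Lda.5043, place 163, and Lda.5584, place 211). The others were a putative anion exchange protein 2 (Lda.12060, place 164), a putative organic cation transporter (Lda.21220, place 219) and a putative prostaglandin E2 receptor EP3 (Lda.27831, place 222). Lda.5043 went from a median of 24.7 normalised counts on day 1 to 111 on day 8 and 328 on day 11, with 181 to 453 in the 6 day 11 pupae. Lda.12060 went from a median of 7.61 on day 1 to 113 on day 8 and 338 on day 11, with 122 to 425 in the day 11 pupae. In Lda.5043 the third ASM pupa was the highest of the 6, and in Lda.12060 it was the lowest.

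The genes differed in how they reached day 11. The next highest day was day 8 in 91 genes, day 1 in 37, day 5 in 17 and day 3 in 5. In 42 genes the day 8 mean was already at least 1 VST unit above those of days 1, 3 and 5, so that they stood higher 3 days before the last sampling day. In 9 genes, by contrast, day 1 was at least 1 VST unit above days 3, 5 and 8, and 79 of the 150 had a day 1 mean of at least 10 normalised counts. Lda.22793 had no read in any of the 24 earlier libraries and, on day 11, 97.1, 107 and 0 normalised counts in ASM and 61.7, 46.6 and 37.4 in ESM pupae (a gene singled out after its values had been seen). Of the 150, 6 had at most 3 reads in all of them together. In 21 genes every earlier library was under 10 normalised counts, in 100 under 100 and in 143 under 1000. In 75 genes the lowest day 11 pupa was above every earlier library, and in 128 genes this held for the other 5 pupae when ASM day 11 replicate 3 was set aside.

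Many of the genes carried close identifier numbers. Of the 150, 55 had another of the 150 within 10 numbers, in 22 runs of 2 to 5 genes. The same count was 66, 49, 51 and 68 for the 150 genes chosen by the rule for days 1, 3, 5 and 8, so a count of this size was found for the other days as well. The longest run held Lda.30557, Lda.30559, Lda.30562, Lda.30564 and Lda.30574. Its genes did not share one pattern on day 11. Lda.30564 had 146 and 300.2 normalised counts in the first pair of ASM pupae and no read in the third, while Lda.30562 had 249, 435 and 574 in the same pupae. Lda.41390, Lda.41391 and Lda.41392 were alike, with next highest levels on day 1 and with 46.4, 3.10 and 0 normalised counts in the third ASM pupa against 909 to 7764, 85.2 to 885 and 115 to 983 in the other 5. These runs were picked out after their values had been seen. Whether genes with close numbers lie side by side, are copies of each other or are pieces of one transcript is not known from the sources used here, and they are not independent items.

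The rise from day 8 to day 11 was checked in pupae that took no part in the choice. The spread of a gene was estimated over all 10 groups, so the pupae of the choice enter the p-values but not the steps. When the rule was applied to the 15 ASM libraries alone, 113 of the 150 genes it chose were called higher on day 11 than on day 8 in ESM pupae (limma, adjusted p under 0.05), where 3.18% of all 19652 genes tested were called higher. None was called lower, or lower at an unadjusted p under 0.05, and voom on the recovered counts also called none lower. The median step in ESM pupae of these genes was 2.99 VST units, against 0.00 over all genes. In the other direction, 120 of the 150 genes chosen in the 15 ESM libraries were called higher in ASM pupae, where 3.84% of all genes were. None was called lower by limma or by voom, and 1 was lower at an unadjusted p under 0.05. Their median step in ASM pupae was 3.59 VST units, against -0.02 over all genes. Day 11 was the highest day in ESM pupae for 143 of the genes chosen in ASM, and in ASM pupae for 144 of the genes chosen in ESM, where day 11 was the highest day for 23.2% and 22.6% of all genes. The lists share 95 genes (63.3% of each). Choosing the genes in ASM without the third day 11 pupa gave 118 of 150 called higher in ESM. Leaving that pupa out of the test in ASM gave 133 of 150 called higher there, and leaving out the first ASM pupa of day 11 gave 86 of 150.

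On day 11 few of the 150 genes were called different between ASM and ESM pupae, and in which direction depended on one pupa. Of the 150, 4 were called higher in ASM and 5 lower (limma, adjusted p under 0.05), where 2.53% of all genes tested were called higher and 2.37% lower. The median difference of the genes was -0.02 VST units, against 0.01 over all genes. Without ASM day 11 replicate 3, 30 were called higher and 1 lower, against 1.79% and 1.43% of all genes, and the median difference was 0.87 VST units, against 0.02 over all genes. In the same comparison 9 genes had all ASM pupae above all ESM pupae and 11 had them all below, where 12.2% and 12.1% of all genes did. Without that pupa 69 of the 150 had both ASM pupae above all 3 ESM pupae, where 19.8% of all genes did, and 11 had them below, where 16.6% did. It was the lowest of the day 11 pupae in 4 of the 5 genes called lower in ASM. That pupa stood apart by its low level in these same genes, so leaving it out raises their ASM mean on day 11. The counts without it are therefore not separate evidence of a direction. The same holds for those over all days, of the step and of the interaction below. The count of calls moved with other pupae too, to 5 higher and 12 lower without ASM day 11 replicate 2, to 4 higher and 1 lower without either ESM replicate 1 or ESM replicate 2 and to 2 higher and 2 lower without ESM replicate 3.

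**Figure D4:**
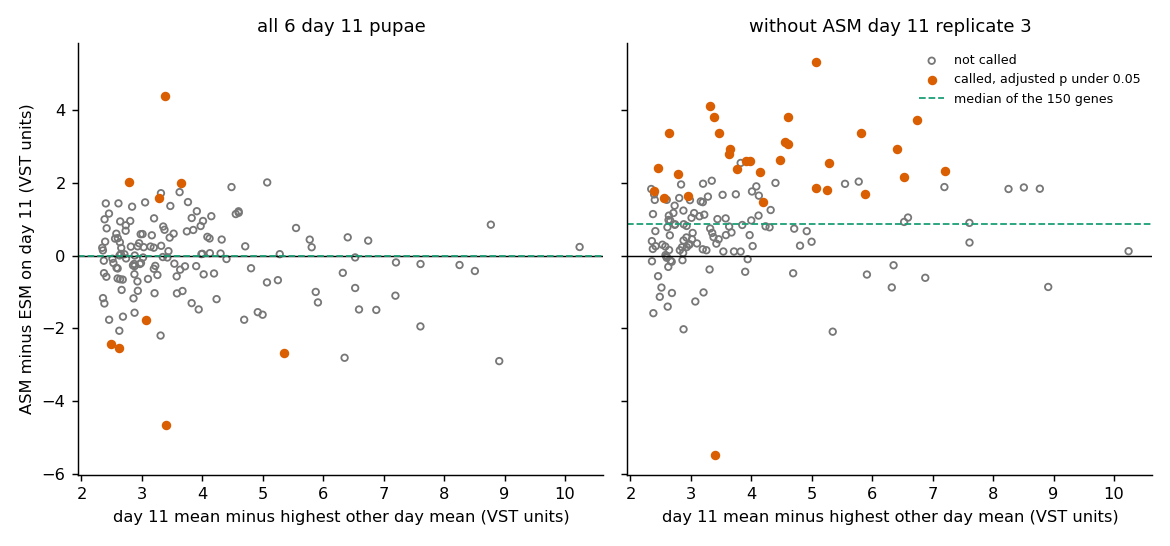
ASM minus ESM on day 11 in VST units for each of the 150 genes against its margin, with all 6 pupae (left) and without ASM day 11 replicate 3 (right); filled points were called at an adjusted p under 0.05 and the dashed line is the median of the genes. The median moves from -0.02 to 0.87, and the called genes from 4 higher and 5 lower to 30 higher and 1 lower.

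The 2 largest differences each way on day 11 among called genes were these. Lda.9560 was higher in ESM, at 398, 604 and 306 normalised counts, than in ASM, at 47.1, 21.9 and 118, a difference of -4.66 VST units (SE 0.95, adjusted p = 0.00584 from limma) and of -5.49 without the third ASM pupa (adjusted p = 0.00345). It was also lower in ASM pupae over all days (difference -2.18, SE 0.43, adjusted p = 0.000601). Lda.23143 was at 389.7, 279.8 and 134 in ESM and 135, 73.9 and 40.2 in ASM pupae, where the highest ASM pupa and the lowest ESM pupa were level (difference -2.68, SE 0.59, adjusted p = 0.00933, and adjusted p = 0.0609 without the third ASM pupa, both from limma). In the other direction Lda.2587 was at 177, 27.0 and 167 in ASM and 24, 2.66 and 1.15 in ESM pupae, with no overlap (difference 4.41, SE 0.66, adjusted p = 0.00039 from limma), after at most 3.99 in any earlier pupa. Lda.30229 was at 84.0, 63.6 and 52.6 in ASM and 24, 8.66 and 35.7 in ESM pupae (difference 2.04, SE 0.41, adjusted p = 0.00526 from limma). The call of Lda.23143 was lost without the pupa that stood apart, and also without ESM replicate 1 (adjusted p = 0.0661) or ESM replicate 2 (adjusted p = 0.0527, limma). That of Lda.30229 was lost without ESM replicate 2 (adjusted p = 0.0514, limma), and those of Lda.9560 and Lda.2587 were kept without each of the 6 pupae in turn.

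Averaged over the 5 days, 5 of the 150 genes were called higher in ASM and 11 lower, where 12.4% and 10.9% of all genes tested were (limma). Strain differences were called in 10.7% of the 150 genes and in 23.4% of all genes. Of the 150, 100 were under 100 normalised counts in every earlier library, and the part of such low levels in this gap was not tested. Without ASM day 11 replicate 3 the counts were 27 higher and 11 lower, against 12.4% and 10.7% of all genes. In either direction these were 25.3% of the 150, so the lower share was not kept. The largest excess in ESM after Lda.9560 was that of Lda.5547, with a difference of -1.66 VST units (SE 0.26, adjusted p = 3.92e-05 from limma). Its ESM pupae held 353, 321 and 435 normalised counts on day 8, when ASM pupae held 84.9, 143 and 159. On day 11 it was 1036, 817 and 651 in ESM and 1483, 474 and 331 in ASM pupae, where the groups overlapped. In the other direction Lda.31902 had the largest difference over all days (difference 0.97, SE 0.29, adjusted p = 0.0167 from limma). Its ASM pupae held 415, 336 and 113 on day 11 and its ESM pupae 129, 246 and 136, again with overlap, while on day 3 its ASM pupae held 29.6, 27.4 and 16.8 and its ESM pupae 0.966, 5.16 and 6.33, without overlap. Lda.2587 came next (difference 0.94, SE 0.29, adjusted p = 0.0219 from limma). With voom on the recovered counts neither was called over all days, with an adjusted p of 0.112 for Lda.31902 and of 0.487 for Lda.2587.

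The step from day 8 to day 11 was called larger in ASM than in ESM pupae in 5 of the 150 genes and smaller in none, where 0.377% and 0.443% of all genes tested were called larger and smaller (limma). At an unadjusted p under 0.05, 5 were smaller in ASM, and voom on the recovered counts called none smaller. Without ASM day 11 replicate 3 the step was called larger in 22 genes and smaller in none (1 at an unadjusted p under 0.05), against 0.458% and 0.427% of all genes. The clearest case was Lda.31051. On day 8 it was at 28.9, 28.3 and 64.0 normalised counts in ESM and at 0, 3.99 and 0.766 in ASM pupae. On day 11 it was at 80.1, 117 and 146 in ESM and 167, 188 and 77.4 in ASM pupae, where the groups overlapped. The step differed by 4.02 VST units (SE 0.62, adjusted p = 0.000527 from limma), and by 4.65 without the third ASM pupa. Its neighbour by number, Lda.31050, had no read in any pupa of days 1 to 5. It was at 414, 218 and 446 in ESM and 14.9, 76.5 and 68.2 in ASM pupae of day 8, and at 627, 590.2 and 653 in ESM and 1264, 384 and 260.0 in ASM pupae of day 11. In both genes ESM pupae were thus above ASM pupae on day 8 and the strains overlapped on day 11. The count of 5 also moved with single pupae: it was 1 without ASM day 8 replicate 1, ASM day 11 replicate 1, ESM day 8 replicate 1 or ESM day 11 replicate 2, 2 without ESM day 8 replicate 3, 3 without ESM day 11 replicate 3 and 8 without ESM day 8 replicate 2. Lda.31051 was called without each of these 12 pupae in turn, with a highest adjusted p of 0.00307 (limma). With voom Lda.2587 (adjusted p = 0.592) and Lda.31050 (adjusted p = 0.0634) were not called.

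**Figure D5:**
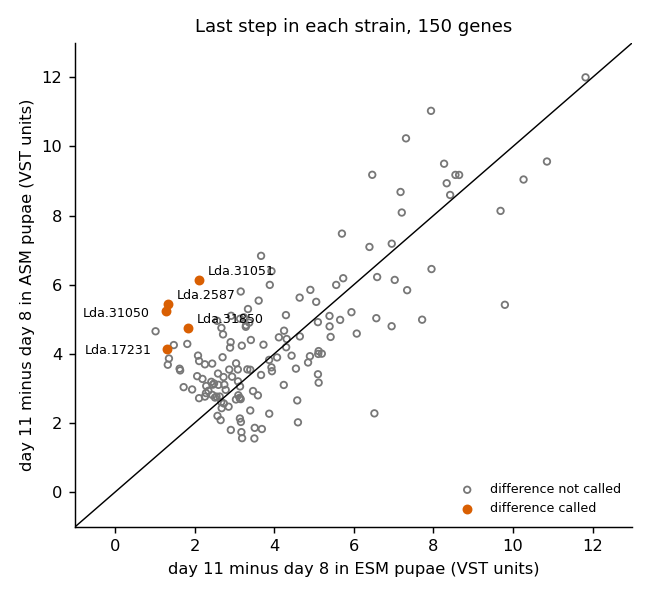
Day 11 minus day 8 in ASM pupae (vertical) against the same in ESM pupae (horizontal), in VST units, for each of the 150 genes; the line marks equal steps, and filled, named points are the 5 genes whose steps were called different. All 5 lie above the line, with a larger step in ASM pupae.

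The comparison on day 8 was added after these values had been seen. On day 8, 10 of the 150 genes were called lower in ASM than in ESM pupae and 2 higher, where 2.82% and 3.54% of all genes were (limma). The median difference on day 8 was -0.36 VST units, against 0.01 over all genes. Leaving out ASM day 11 replicate 3, which is not a day 8 pupa, changed these counts to 18 lower and 10 higher against 3.35% and 4.2% of all genes. The spread of a gene is estimated over all 10 groups, so that a pupa of another day enters it, and the day 8 median did not move. The count of 12 genes called on day 8 was 7 without ASM day 8 replicate 1, 6 without ESM day 8 replicate 1 and 7 without ESM day 8 replicate 3. The interaction of strain and day over the 5 days was called in 7 of the 150 genes, where 3.65% of all genes were, and in 28 without that pupa, where 4.44% were. It was called in 11 genes without ASM day 1 replicate 3, ASM day 11 replicate 2, ESM day 1 replicate 1 or ESM day 8 replicate 2, in 4 without ASM day 8 replicate 1 or ESM day 3 replicate 1 and in 3 without ESM day 8 replicate 1. The smallest p were those of Lda.31051 (adjusted p = 0.000698) and Lda.31050 (adjusted p = 0.00467), both from limma.

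None of the described genes in 7 lists of pupal roles was among the 150, so the lists show what else moved in the last step. The 2 described genes of the 150 had not been put in any list. The lists were drawn from the descriptions of the study, which picked these genes in part on these samples, and they are not independent evidence of a direction. The step from day 8 to day 11 was taken as the average over the strains. Over all genes tested, 6.27% were called higher and 9.04% lower, and the median step was -0.01 VST units.

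Most genes for cuticle proteins and for Osiris proteins, an insect family expressed in cells that secrete cuticle, were lower on day 11 than on day 8, and several of them more so in ASM than in ESM pupae. Of 11 tested, 8 fell, none rose and 3 were not called, with a median step of -6.26 VST units, and these counts were the same without ASM day 11 replicate 3. At an unadjusted p under 0.05 none rose, and voom called none higher. Lda.23652, a putative cuticle protein 19.8-like, was at 701 to 5245 normalised counts on day 8 and at most 0.575 on day 11. The putative Lda.35031 (osiris 18) was at 4083, 3205 and 391 in ASM and at 0, 16.6 and 0 in ESM pupae of day 8, and had no read in any pupa of day 11. Lda.20030 and Lda.12768, putative tweedle cuticular proteins, had medians of 1062 and 838 on day 8 and of 1.89 and 1.64 on day 11. Their highest day 11 values, 203 and 155, were both in ASM day 11 replicate 3.

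The strains were compared for this list after its day 8 values had been seen. In 5 of the 11 genes (Lda.15281, Lda.6827, Lda.35030, Lda.35031 and Lda.35510) the fall was called larger in ASM than in ESM pupae (limma), a direction in which 0.443% of all genes were called. The paper had named these 5 genes for higher ASM levels on day 8 in these same libraries. With day 11 levels at or near 0 in both strains, the larger fall restates that choice and is not separate evidence. On day 8 these 5 genes were at 56.7 to 5070.3 normalised counts in ASM and at 0 to 51.6 in ESM pupae. Their step within ESM pupae was not called (adjusted p of 0.288 to 0.926, limma), while within ASM pupae all 5 were called lower on day 11. Without ASM day 11 replicate 3 the fall was called larger in ASM in 6 genes. Voom on the recovered counts called a difference in none of the 11, with 6 at an unadjusted p under 0.05.

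Genes of synapses and excitability mostly did not pass the test. Of 18 tested, 3 rose, 1 fell and 14 were not called, and the counts of genes that rose and fell were the same without ASM day 11 replicate 3. Lda.26994, a putative acetylcholinesterase, which ends signalling at cholinergic synapses, rose from a median of 11.0 (5.85 to 19.7) on day 8 to 40.9 (10.8 to 90.6) on day 11 (difference 1.89 VST units, SE 0.45, adjusted p = 0.00391 from limma). Lda.23612, a putative synaptic vesicle glycoprotein 2B, rose from 299 (257 to 475) to 634 (464 to 1245), with a difference of 1.54 VST units (SE 0.40, adjusted p = 0.00927 from limma). Lda.22240, a putative neuropeptide Y receptor, rose from a median of 0.438 (0 to 5.32) to 5.11 (1.55 to 14.7), at few counts throughout. Lda.4585, a putative kainate-type glutamate receptor, fell from 915 to 536. Taken by strain, the steps of Lda.26994 and Lda.23612 were called in ASM pupae alone and those of Lda.22240 and Lda.4585 in ESM pupae alone (limma). The step was not called different between the strains in any of them (adjusted p of 0.433 to 0.950, limma). For the 3 that rose, ASM day 11 replicate 3 was the lowest of the 6 day 11 pupae, and for the 1 that fell it was the highest.

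In energy metabolism 2 of 13 genes fell and 11 were not called. The list did not hold the putative sorbitol dehydrogenase Lda.11987 or the putative uncoupling proteins Lda.5043 and Lda.5584. Their medians were 216, 111 and 66.1 normalised counts on day 8 and 854, 328 and 186 on day 11. The counts thus cover the 13 listed genes alone. Lda.7112, a putative isocitrate dehydrogenase, fell from a median of 1778 on day 8 to 998 on day 11, and Lda.27972, a putative 2-oxoglutarate dehydrogenase of mitochondria, from 3912 to 2485. Both enzymes belong to the citric acid cycle. In both, ASM day 11 replicate 3 was the highest of the day 11 pupae, at 2648 and 4680.01. Taken by strain, the step of Lda.27972 was called in ESM pupae alone (adjusted p = 0.0247 from limma) and that of Lda.7112 in neither strain. In neither gene was the step called different between the strains (adjusted p of 0.529 and 0.889, limma). None of these 13 rose (2 at an unadjusted p under 0.05, none by voom, and 1 without that pupa), and 2 fell without it too. No gene was called in the lists for storage proteins (2 genes), light and retinoid (4 genes), cilia (7 genes) or adhesion and muscle attachment (7 genes). At an unadjusted p under 0.05, 1 storage protein gene was higher, and 1 gene of light and retinoid and 2 of adhesion were lower. Without ASM day 11 replicate 3, 1 storage protein gene was called higher, 1 gene of light and retinoid and 1 of adhesion were called lower, and none of cilia was called. Voom called 1 gene lower in light and retinoid and 1 in adhesion, and none among storage proteins and cilia. Over the 7 lists 14 genes were called, and 18 without that pupa.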

How the data were processed

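Female pupae were homogenised singly, and directional poly(A) libraries were sequenced on an Ion Proton, 1 library per pupa. The steps named by the authors are quality checks (FastQC 0.11.5), trimming (Trimmomatic 0.36), removal of iflavirus content, alignment to a draft ASM genome (HISAT2), merging of gene models (StringTie) and read counting (featureCounts 2.0.0). What was deposited is a matrix of 19654 genes by 30 libraries on the log2-like variance-stabilised scale of DESeq2 1.28.1 (R 4.0.2), with -0.52 for a count of 0. The strand setting of the counting is not given in the sources used here, and reads of similar gene copies may be shared between them.

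Counts were recovered by inverting the curve shared by all libraries, with 99.98% to 100% of values per library within 0.05 of a whole number. Differences were tested with limma 3.58.1 (R 4.3.3) on the deposited values, since counts were not the deposited unit, with 1 mean for each of the 10 strain-by-day groups, a mean-variance trend in the moderation and Benjamini-Hochberg adjustment over the 19652 genes that had a read in 3 or more libraries. Genes with an adjusted p under 0.05 are said to be called. The recovery and the main fit were also run on simulated counts. All genes were given the same spread there and no pupa stood apart, so that run does not bear on ASM day 11 replicate 3. Python 3.11.15, numpy 2.4.6, pandas 2.3.3 and matplotlib 3.10.9 were used for the rest.

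The genes, the lists, the named-gene rule and the tests were chosen with earlier results of these data known. Named by the rule were described genes, the 4 largest margins, the genes on both sides of the threshold of 150, the 2 called genes with the largest strain difference each way in each comparison, the 2 smallest interaction p, the 2 widest and 2 narrowest day 11 ranges and the 2 highest levels on days 11 and 1. Ranges and day 1 levels were ranked on the VST scale, and day 11 levels by normalised count. Alternatives were another scaling, a stricter filter, voom, no variance trend, a replicate block, fewer libraries and other forms of the rule.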

Additional observations from a re-analysis of the deposited data

Results flagged for a closer look

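In 5 of the 150 genes the step from day 8 to day 11 differed between the strains at an adjusted p under 0.05 (limma on the deposited values, all 30 pupae), and each was larger in ASM pupae. Over all genes tested, 0.377% were called larger and 0.443% smaller in ASM. In Lda.31051 the steps differed by 4.02 VST units, with 6.13 in ASM and 2.11 in ESM pupae. In Lda.31050 they differed by 3.96, with 5.23 in ASM pupae and a smaller step in ESM pupae. In Lda.2587 they differed by 4.11, with 5.43 and 1.33, and unlike the others this gene was at most 3.99 normalised counts on day 8 in both strains. In Lda.31850 they differed by 2.91, from 181, 189 and 290.4 normalised counts to 3670, 1969 and 2442 in ASM and from 671, 258 and 326 to 1702, 457 and 1185 in ESM pupae. In Lda.17231 they differed by 2.83, from 252, 675 and 401 to 6333, 4676 and 5217 in ASM and from 1713, 571 and 1585 to 3489, 2315 and 2347 in ESM pupae. With each of the 12 pupae of days 8 and 11 left out in turn, Lda.31051 was called in 12 of 12 fits, Lda.31850 and Lda.31050 in 7, and Lda.2587 and Lda.17231 in 4. With voom on the recovered counts Lda.2587 (adjusted p = 0.592) and Lda.31050 (adjusted p = 0.0634) were not called.

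The strain difference changed over the 5 days in 7 of the 150 genes (limma, moderated F, adjusted p under 0.05). These were Lda.31051, Lda.31050, Lda.2587, Lda.31850, Lda.30875, Lda.11633 and Lda.9888. Over all genes tested 3.65% were called, not far from the share among the 150. Voom on the recovered counts called 1 of the 150. Lda.30875 was at 53.4, 56.6 and 61.3 normalised counts in ASM and 569, 108 and 172 in ESM pupae of day 8. Lda.11633 was at 29.8, 25.3 and 14.6 in ASM and 95.9, 55.5 and 86.5 in ESM pupae of that day. Lda.11633 and Lda.9888 are named after their values had been seen.

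Outside the 150 genes, the fall from day 8 to day 11 was called larger in ASM than in ESM pupae in 5 of the 11 cuticle and Osiris genes (limma, adjusted p under 0.05), and in none of them with voom (6 at an unadjusted p under 0.05). The paper had named these 5 genes for higher ASM levels on day 8 in these same libraries, so the result is not separate evidence.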

How the results depend on the processing

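Most of the 150 genes were chosen under each other form of the rule, and the fewest on the log2 scale. Of the 150, 117 were chosen on log2 of the normalised count + 1, 146 with library medians made equal, 138 on medians, 119 in ASM and 123 in ESM libraries alone, and 140 to 144 without 1 day 11 pupa. The number of genes called for a strain difference was less stable. A filter that asked for a read in all 30 libraries left 68 of the 150 genes to test, and the calls were then 4 on day 11, 6 on day 8, 9 over all days, 2 for the interaction and 0 for the step difference. With it 44 of the genes chosen in ASM were called in ESM, 54 of those chosen in ESM were called in ASM, 5 listed genes were called against 14, and 0 cuticle and Osiris genes (of 5) for the step difference. Voom on the recovered counts called 14 genes on day 11, 4 over all days, 1 for the interaction 3 for the step difference and 0 cuticle and Osiris genes for it, and the cause of these changes was not tested. A fit to the 6 day 11 libraries alone called 0 of the 150 on day 11 (14 at an unadjusted p under 0.05), and 169 of all genes. Shifting the medians and dropping the variance trend kept every count within 1.5 times.

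Leaving out 1 pupa gave 4 to 31 genes on day 11, 6 to 28 on day 8, 13 to 38 over all days, 3 to 28 for the interaction, 1 to 22 for the step difference, 95 to 105 for the genes chosen in ASM, 86 to 133 for those chosen in ESM 11 to 18 for the lists and 5 to 6 cuticle and Osiris genes for the step difference. Most of the highest values came without ASM day 11 replicate 3.

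The pupae share only a number. Across genes, the deviations of same-numbered ASM and ESM pupae from their group means correlated at -0.01, 0.22 and -0.03 on day 11 and at over 0.1 in 6 of the 15 pairs of the 5 days, among them all 3 of day 1 (0.41, 0.18 and 0.21) and 2 of day 5 (0.42 and 0.48). Of the 30 pupae, 13 correlated best with their own number. With the replicate block, 10 genes were called on day 11, 15 over all days, 6 for the step difference and 11 for the interaction, against 9, 16, 5 and 7 without it.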
